A study of Homo sapiens with 6 samples.

Results

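TIPARP, which encodes the mono-ADP-ribosyltransferase PARP7, was examined together with 6 genes of the aryl hydrocarbon receptor (AHR) pathway in SKOV3 ovarian carcinoma cells stimulated with cGAMP. The 7 genes TIPARP, AHR, AHRR, ARNT, CYP1A1, CYP1B1 and NQO1 were picked out of the table of 60498 genes by their symbols. All 7 were among the 15126 genes that averaged 10 or more counts over the libraries and were tested. The study addressed how haplotypes of STING1, the endoplasmic reticulum adaptor that binds cGAMP, affect the response of cancer cells. RNA-seq was carried out on 3 lines: the heterozygous parent (WT/HAQ) and derivatives in which the remaining functional STING1 allele is WT (WT/-) or HAQ (HAQ/-). The derivatives came from a CRISPR/Cas9 experiment with paired guides, and each is a selected clone. Each line gave 1 control library and 1 library after 10 µg/mL cGAMP for 30 min followed by 4 h of rest. The study's methods describe cGAMP delivery in a buffer with digitonin, which opens the plasma membrane, but do not say whether control cells received the same buffer. The effect of cGAMP and that of permeabilization therefore cannot be told apart here. With 1 clone per edited genotype, haplotype and clone cannot be told apart either.

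AHR is a cytoplasmic receptor for dioxins, polycyclic hydrocarbons and tryptophan metabolites such as kynurenine. After ligand binding it enters the nucleus, pairs with ARNT and binds xenobiotic response elements with the core GCGTG. CYP1A1 and CYP1B1, which oxidise hydrocarbons and estrogens, the quinone reductase NQO1, the AHR repressor AHRR and TIPARP itself are all textbook AHR target genes, and AHRR and PARP7 both restrain the receptor in return. PARP7 is also known as a brake on type I interferon induction through the kinase TBK1, which acts directly downstream of STING1, and this places it in both pathways.

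The stretches before the transcription start of TIPARP, AHRR and CYP1A1 are shown because each holds the AHR-ARNT core. In WT/HAQ and WT/- TIPARP was higher with cGAMP, whereas AHRR and CYP1A1 were lower. The sequences come from RefSeq (GRCh38.p14), are written 5′ to 3′ on the strand of the gene and end at the last base before the start, and capitals mark GCGTG on either strand (CACGC on the other strand).
TIPARP, chr3:156674340-156674589, plus strand: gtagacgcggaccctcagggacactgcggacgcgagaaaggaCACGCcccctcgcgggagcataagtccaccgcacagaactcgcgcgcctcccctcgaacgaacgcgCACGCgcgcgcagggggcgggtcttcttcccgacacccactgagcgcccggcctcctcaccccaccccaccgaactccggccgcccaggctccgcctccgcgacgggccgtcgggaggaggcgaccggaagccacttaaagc
AHRR, chr5:321464-321713, plus strand: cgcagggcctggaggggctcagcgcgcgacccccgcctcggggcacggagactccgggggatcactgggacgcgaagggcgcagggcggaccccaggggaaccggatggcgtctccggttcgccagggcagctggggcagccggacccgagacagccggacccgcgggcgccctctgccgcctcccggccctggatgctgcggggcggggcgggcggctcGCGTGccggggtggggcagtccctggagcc
CYP1A1, chr15:74725529-74725778, minus strand: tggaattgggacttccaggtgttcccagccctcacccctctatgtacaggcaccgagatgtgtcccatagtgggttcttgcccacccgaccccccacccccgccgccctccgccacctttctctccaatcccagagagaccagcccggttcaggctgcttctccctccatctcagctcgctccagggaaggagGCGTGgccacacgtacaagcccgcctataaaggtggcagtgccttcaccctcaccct

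The TIPARP stretch held the core 208 and 142 bases before the start, the AHRR stretch 30 bases and the CYP1A1 stretch 57 bases before it. RefSeq windows of 250 bases before to 50 bases after the start were found for 6 of the 7 genes (9 windows in all). CYP1B1 had no window, so the motif counts do not cover it. In the windows, 5 motifs were searched on both strands. GCGTG was present in 36.5% of 35116 windows of the whole genome, so a single match is common. The longer element TNGCGTG, which contains the core, was present in 5.51% of windows and among these genes in the first of 2 AHRR windows, 32 bases before the start, and in the NQO1 window, at base 2 after the start. The AHR window held GCGTG at base 38 after the start, and the second AHRR window held it 247 and 42 bases before its start. The other 2 TIPARP windows, at later starts, and the ARNT window held none. The interferon-stimulated response element was present in 3.57% of all windows and in 0 of the 9. The antioxidant response element core TGACNNNGC (13.3% of windows) was found in the ARNT window only, 183 bases before the start. The hypoxia-inducible factor (HIF) core ACGTG (21.4% of windows) was found in the AHR window, as a palindrome read on both strands 165 and 164 bases before the start, and in the CYP1A1 window 48 bases before it. These matches describe letters in the windows and not binding.

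The libraries held between 12444822 and 17608467 counts. STING1, the edited gene, had normalized counts of 669 in the control and 1780 in the cGAMP library of WT/HAQ, 353 and 553 in WT/-, and 213 and 403 in HAQ/-, so that within each treatment both edited lines were below the parent. All 7 epithelial and ovarian carcinoma markers, among them EPCAM, KRT7 and PAX8, had at least 1 count in every library, and their summed normalized counts ranged from 87706 to 107267 in the control and from 72265 to 89221 in the cGAMP libraries. ERBB2 made up most of these sums (67741 in the WT/HAQ control library). MUC16 was scarce, with counts of 33 and 72 in the control and cGAMP libraries of WT/HAQ, 7 and 14 in WT/-, and 1 and 4 in HAQ/-. The 6 markers of leukocytes, endothelium and fibroblasts summed to between 13.3 and 32.7 in the control and between 33.4 and 70.3 in the cGAMP libraries, and 1 or 2 of them were at 0 in each library. Of these, the collagen gene COL3A1 had counts of 0 and 51 in the control and cGAMP libraries of WT/HAQ, 1 and 0 in WT/- and 1 and 41 in HAQ/-. Its part in the results below was not tested.

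TIPARP (ENSG00000163659, chromosome 3, 156673235 to 156706770 on the plus strand of GRCh38) was more abundant in the cGAMP than in the control library of each line, by over 1.5-fold in WT/HAQ and WT/- and by less in HAQ/-. Normalized counts, which are counts scaled to a common effective library size, were 1816 in the control and 5097 in the cGAMP library of WT/HAQ. In WT/- they were 3475 and 7314, and in HAQ/- they were 1081 and 1272. The WT/- libraries were each the higher of their treatment, and the cGAMP library of HAQ/- stayed below the control library of every other line. The ratio of cGAMP to control was 2.81-fold in WT/HAQ (log2 1.49, 95% counting interval 1.42 to 1.56), 2.10-fold in WT/- (log2 1.07, 1.01 to 1.13) and 1.18-fold in HAQ/- (log2 0.23, 0.12 to 0.35). Wilson intervals cover counting error only, since there was 1 library per condition. The log2 fold in HAQ/- was lower than that in WT/HAQ by 1.25 (1.12 to 1.39) and than that in WT/- by 0.84 (0.71 to 0.97). These differences between lines exceeded counting error, and they had no replicate test because a line-by-treatment term leaves no residual degrees of freedom. In order of level, from the cGAMP library of WT/- down to the control library of HAQ/-, each library exceeded the next by more than counting error. In such bulk RNA, fewer expressing cells and less RNA per cell cannot be told apart.

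**Figure D1:**
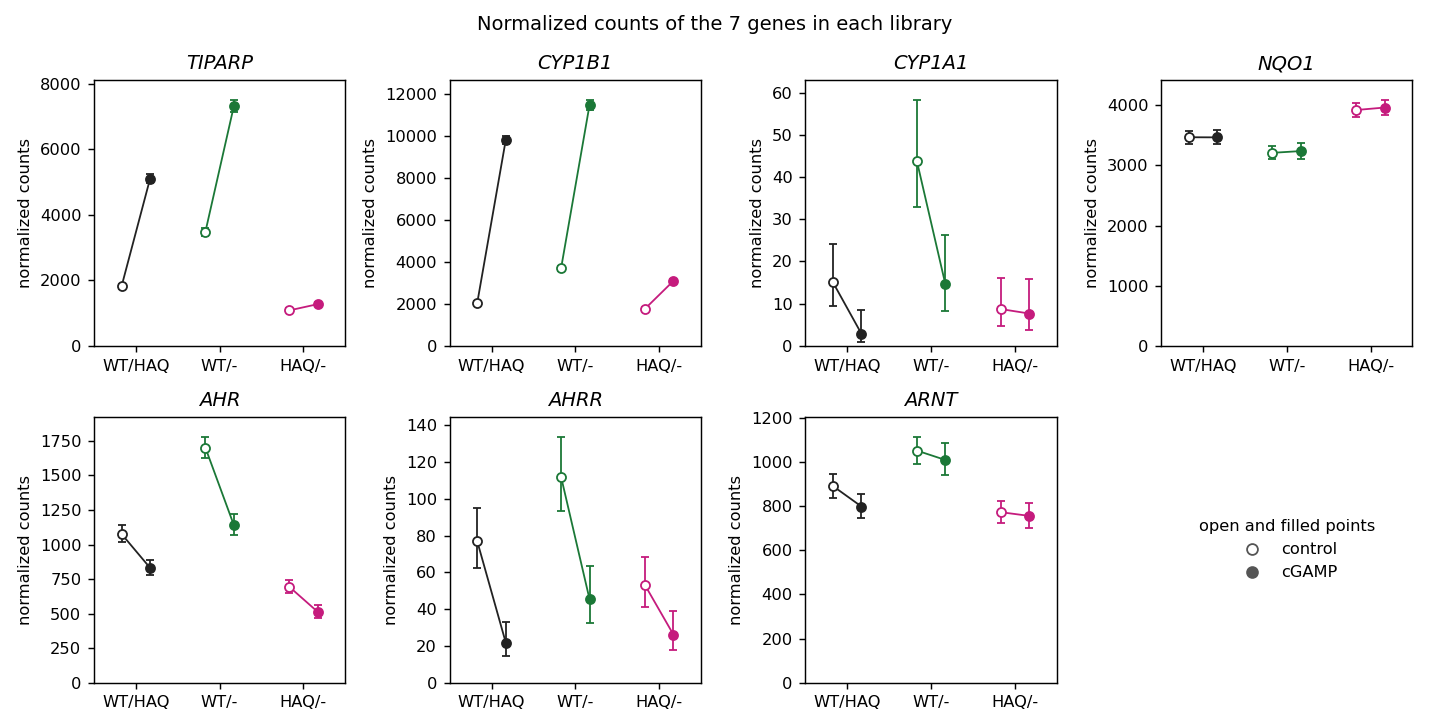
Normalized counts (linear axes from 0) of the 7 genes in the control (open points) and cGAMP (filled points) library of WT/HAQ (black), WT/- (green) and HAQ/- (magenta). Each point is 1 library, bars are 95% Wilson counting intervals and lines join the libraries of a line. TIPARP and CYP1B1 lie higher in each cGAMP library, AHR, AHRR and CYP1A1 lie lower, and ARNT and NQO1 lie close to their controls.

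CYP1B1 (ENSG00000138061, chromosome 2, 38066973 to 38109902, minus strand), the estrogen- and hydrocarbon-oxidising cytochrome, was the AHR target with the response closest to that of TIPARP. Normalized counts were 2052 in the control and 9797 in the cGAMP library of WT/HAQ, 3690.0 and 11468 in WT/-, and 1759 and 3087 in HAQ/-. Stimulated WT/HAQ and WT/- cells stood above all others, and the cGAMP library of HAQ/- stayed below the control library of WT/-. The folds were 4.77 (log2 2.25, 2.19 to 2.32), 3.11 (log2 1.64, 1.58 to 1.69) and 1.76 (log2 0.81, 0.73 to 0.89) in WT/HAQ, WT/- and HAQ/-. As for TIPARP, the fold was largest in WT/HAQ and smallest in HAQ/-, with a log2 difference of 1.44 (1.34 to 1.55) between these lines and of 0.82 (0.73 to 0.92) between WT/- and HAQ/-. CYP1B1-AS1, an antisense transcript whose exons share 678 bases with CYP1B1, was at most 99 counts in any library (26 and 99, 48 and 83, 21 and 36 in the control and cGAMP libraries of WT/HAQ, WT/- and HAQ/-). Whether counting used strand was not given in the sources used here, so reads from the shared bases cannot be assigned.

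CYP1A1 (ENSG00000140465, chromosome 15, 74719542 to 74725536, minus strand), the most widely used indicator gene of AHR activity, was near the limit of detection and went the other way. Its counts were 17 in the control and 3 in the cGAMP library of WT/HAQ, 47 and 11 in WT/-, and 10 and 7 in HAQ/-, which correspond to normalized counts of 15.0 and 2.85, 43.9 and 14.7, and 8.72 and 7.66. The WT/- control library was the highest, and among the other 5 no library differed from the next in order beyond counting error. The cGAMP level was 5.27-fold lower in WT/HAQ (log2 -2.40, -4.07 to -0.72) and 2.99-fold lower in WT/- (log2 -1.58, -2.51 to -0.65). In HAQ/- the log2 fold of -0.19 (-1.53 to 1.16) was not distinguishable from 0 at this depth. The WT/HAQ value rests on a library of 3 counts and became -0.66 when counts under 10 were set to 10.

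NQO1 (ENSG00000181019, chromosome 16, 69706996 to 69726668, minus strand), a quinone reductase induced through both AHR and NRF2, showed no difference beyond counting error in any line. Normalized counts were 3468 and 3466 in the control and cGAMP libraries of WT/HAQ, 3209 and 3239 in WT/-, and 3921 and 3963 in HAQ/-. The libraries grouped by line and not by treatment, with HAQ/- the highest. The log2 folds were -0.001 (-0.07 to 0.06), 0.01 (-0.06 to 0.09) and 0.02 (-0.05 to 0.08), so that a change of more than 0.09 in either direction lies outside the counting interval in each line.

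The receptor itself, AHR (ENSG00000106546, chromosome 7, 16916359 to 17346152, plus strand), was lower in the cGAMP library of every line. Normalized counts were 1077 and 832 in the control and cGAMP libraries of WT/HAQ, 1701 and 1141 in WT/-, and 695 and 513 in HAQ/-. Both HAQ/- libraries were below all libraries of the other lines. The log2 folds were -0.37 (-0.50 to -0.25), -0.58 (-0.69 to -0.46) and -0.44 (-0.60 to -0.27) in WT/HAQ, WT/- and HAQ/-, and the value in HAQ/- differed by less than counting error from that in either other line. Between the parent and WT/- the log2 folds differed beyond counting error, by 0.20 (0.03 to 0.38).

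AHRR (ENSG00000063438, chromosome 5, 321714 to 438291, plus strand), the repressor that competes with AHR for ARNT and is itself AHR-induced, was lower in the cGAMP library of every line, by more than 2-fold. Normalized counts were 76.9 and 21.9 in the control and cGAMP libraries of WT/HAQ, 112 and 45.4 in WT/-, and 53.2 and 26.3 in HAQ/-. All control libraries lay above all cGAMP libraries, although the HAQ/- control and the WT/- cGAMP library did not differ beyond counting error. The cGAMP level was 3.52-fold lower in WT/HAQ (log2 -1.81, -2.47 to -1.16), 2.47-fold lower in WT/- (log2 -1.30, -1.85 to -0.76) and 2.03-fold lower in HAQ/- (log2 -1.02, -1.69 to -0.34). The differences of these folds between lines were within counting error. AHR and AHRR each share exons with annotated genes on the same strand for which no count was used here (PDCD6-AHRR for AHRR), so the counting could split their reads, and their values are uncertain to that extent.

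ARNT (ENSG00000143437, chromosome 1, 150809713 to 150876708, minus strand), the shared partner of AHR and the HIF proteins, had normalized counts of 890.1 and 797 in the control and cGAMP libraries of WT/HAQ, 1051 and 1008 in WT/-, and 772 and 755 in HAQ/-. The log2 folds were -0.16 (-0.29 to -0.03), -0.06 (-0.19 to 0.07) and -0.03 (-0.18 to 0.11). Only the parent line showed a difference beyond counting error, and it was the smallest such difference among the 7 genes.

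**Figure D2:**
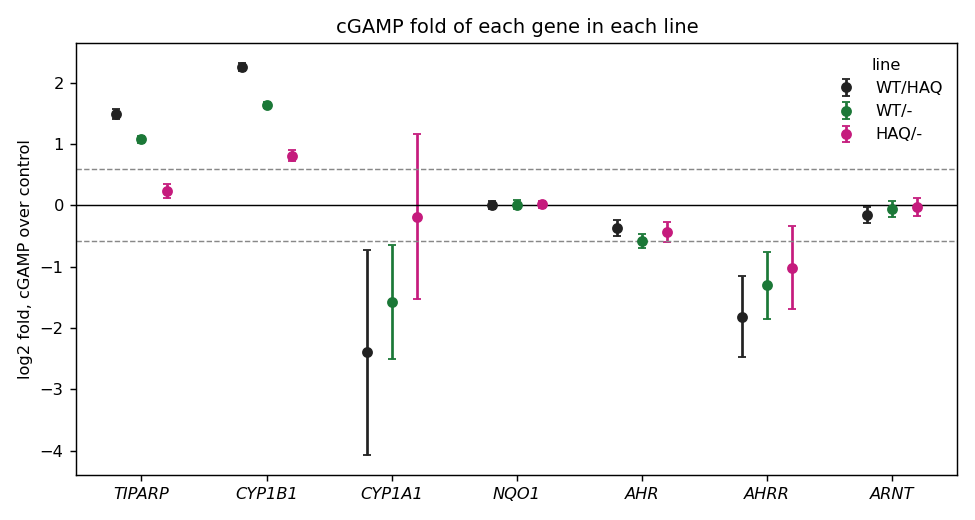
Log2 fold of cGAMP over control for the 7 genes in WT/HAQ (black), WT/- (green) and HAQ/- (magenta), with 95% Wilson counting intervals from 1 library per condition. Dashed lines mark 1.5-fold in either direction. TIPARP runs from 1.49 down to 0.23 and CYP1B1 from 2.25 down to 0.81 over the lines, whereas AHRR lies between -1.81 and -1.02.

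Counted at a threshold of 1.5-fold, 2 of the 7 genes were raised in WT/HAQ (TIPARP and CYP1B1) and 2 lowered (AHRR and CYP1A1), against 12.8% raised and 12.3% lowered among all genes tested in that line. In WT/- the same 4 genes passed in the same directions, beside 11.9% raised and 8.77% lowered among all genes. In HAQ/- CYP1B1 was raised and AHRR lowered, beside 6.75% and 5.76% of all genes.

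A quasi-likelihood F test in edgeR then compared both treatments over the 3 lines, blocked on line, with p-values adjusted over all genes by the Benjamini-Hochberg method. AHR fell, with a log2 change of -0.46 (SE 0.0748, adjusted p = 0.0463) and a lower value in 3 of 3 lines. It was the single call among the 7, with 0 called higher. Of all genes, 2.27% were called higher and 0.959% lower. Before adjustment, 2 of the 7 were higher and 3 lower at p under 0.05, beside 11.6% and 13.6% of all genes. DESeq2 called 2 of them higher (TIPARP and CYP1B1) and 2 lower (AHR and AHRR), beside 5.2% and 3.93% of the genes it tested. For AHRR the log2 change was -1.38 (SE 0.236, adjusted p = 0.0522), for CYP1B1 1.57 (SE 0.275, adjusted p = 0.0553) and for TIPARP 0.94 (SE 0.240, adjusted p = 0.0964), each with the same direction in 3 of 3 lines. These 3 changes were larger than that of AHR, and they varied more from line to line. CYP1A1 had a log2 change of -1.36 (SE 0.474, adjusted p = 0.160), ARNT of -0.08 (adjusted p = 0.514) and NQO1 of 0.01 (adjusted p = 0.949). The call for AHR was lost in 5 of 10 alternatives: without WT/HAQ (adjusted p = 0.128), without WT/- (0.368), without the block on line (0.767), with DESeq2 size factors (0.0545) and with a count minimum of 50 (0.0510). Without WT/-, 0 of the 15126 genes were called in either direction, so that loss was not particular to AHR. Without HAQ/-, TIPARP (log2 1.28, adjusted p = 0.000389) and CYP1B1 (log2 1.94, adjusted p = 0.000154) passed as higher, and AHR (adjusted p = 0.0172), AHRR (adjusted p = 0.00876) and CYP1A1 (adjusted p = 0.0401) as lower. In that fit 1285 of the 15126 genes tested were called higher and 1309 lower. Over all 10 alternatives the adjusted p of TIPARP ranged from 0.000389 to 0.633 and was below 0.05 in 3.

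Differences between the lines were tested in the same model over both treatments, with 2 libraries per line. HAQ/- had lower levels than WT/- for 4 of the 7 genes, where 11.1% of all genes were called lower. TIPARP was lower by a log2 difference of -2.07 (SE 0.300, adjusted p = 0.0142), CYP1B1 of -1.44 (SE 0.332, adjusted p = 0.0419), AHR of -1.22 (SE 0.0927, adjusted p = 0.00345) and ARNT of -0.43 (SE 0.0845, adjusted p = 0.0285). In the control libraries alone, TIPARP was 3.22-fold lower in HAQ/- than in WT/- (3.02 to 3.43), and in the cGAMP libraries 5.75-fold lower (5.40 to 6.13). The corresponding ratios were 2.45-fold and 2.22-fold for AHR and 2.10-fold and 3.72-fold for CYP1B1, so the gap between these lines was also present in the control libraries. AHRR (log2 difference -0.95, adjusted p = 0.0776), CYP1A1 (-1.75, adjusted p = 0.0898) and NQO1 (0.29, adjusted p = 0.0575) did not pass. Between WT/- and WT/HAQ, where 4.99% of all genes were called higher, AHR alone of the 7 was higher in WT/- (log2 0.56, adjusted p = 0.0300). TIPARP had a difference of 0.70 (adjusted p = 0.184). The AHR call was lost without any 1 of the 4 libraries of these lines (log2 from 0.462 to 0.64). Without either WT/- library, 0 of the 15126 genes were called. Between HAQ/- and WT/HAQ, where 1.22% of genes were called in either direction, 0 of the 7 passed in edgeR. At an unadjusted p under 0.05, 3 were lower, beside 10.7% of all genes, and DESeq2 called 2 lower, beside 2.67% of the genes it tested. TIPARP there had a log2 difference of -1.36 (adjusted p = 0.110) and AHR of -0.66 (adjusted p = 0.0509). All 4 calls between HAQ/- and WT/- were lost without the control or without the cGAMP library of WT/- (TIPARP log2 difference -2.154 and -1.955). In both fits 0 of the 15126 genes were called, so these losses were not particular to the 4 genes. All 4 calls were also lost without the treatment block (adjusted p = 0.110 for TIPARP, 0.0728 for AHR, 0.327 for CYP1B1 and 0.0749 for ARNT). The call for ARNT was lost as well without either HAQ/- library (adjusted p = 0.0781 and 0.0511) and in DESeq2 (0.0609). Leaving out either HAQ/- library also brought the adjusted p of TIPARP under 0.05 for HAQ/- against WT/HAQ (0.0432 without the cGAMP and 0.000488 without the control library) and for WT/- against WT/HAQ (0.00538 and 0.00535). CYP1A1 and CYP1B1 then passed as well for WT/- against WT/HAQ. Where 1 library of a line is left out, the remaining one is fitted exactly and assumed to vary like the other lines, so these p-values rest on the spread in the other lines.

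Expressed per kilobase of exon, so that genes can be compared, NQO1 had the highest median of the 7 over the 6 libraries, 1167 normalized counts per kb. In the WT/- cGAMP library, however, CYP1B1 (1904) and TIPARP (1524) stood above NQO1 (1090). In the WT/HAQ cGAMP library CYP1B1 (1626) stood above NQO1 (1167). CYP1B1 had a median of 563 and TIPARP of 551, followed by ARNT with 131 and AHR with 118. AHRR had 5.20 and CYP1A1 3.48, so that the repressor and the classical indicator gene were present at a small fraction of the level of the receptor. The range over libraries was from 225 to 1524 for TIPARP and from 292 to 1904 for CYP1B1, but only from 1080.2 to 1334 for NQO1.

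Whether TIPARP moves with other AHR targets was described by the distance between the log2 profiles of 2 genes over the 6 libraries, after subtraction of each gene's mean. Of 15125 other genes, CYP1B1 ranked 68th in likeness to TIPARP, with a distance of 1.01. AHR ranked 1710th (distance 2.05) and ARNT 2933rd (2.25). NQO1 ranked 10074th (2.76), AHRR 13537th (3.30) and CYP1A1 14207th (3.63), so these 3 targets were less like TIPARP than most genes. Counts of AHRR (23 to 120) and CYP1A1 (3 to 47) were low, so counting error adds to their distances. The 5 genes most like TIPARP were CSPG4P12, FLJ31104, IRS2, AQP3 and BEST3, with distances from 0.399 to 0.541. IRS2, an adaptor of the insulin receptor, had normalized counts of 473 and 1016 in the control and cGAMP libraries of WT/HAQ, 712 and 1405 in WT/-, and 270.4 and 327 in HAQ/-. Its log2 folds were 1.10, 0.98 and 0.28, and their likeness to those of TIPARP is what selected it. CSPG4P12 is annotated as a pseudogene, and its counts are uncertain because reads can be shared with its parent gene. FLJ31104, the aquaporin gene AQP3 and the anion channel gene BEST3 had normalized counts of at most 25.4, 138 and 58.8. The points share 6 libraries and their line structure, so likeness over them describes these libraries only.

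Calls among genes around the receptor and further AHR-induced genes were all in the lower direction and differed between tools. Of all genes, edgeR called 2.27% higher and 0.959% lower, DESeq2 called 5.2% and 3.93%, and 11.6% and 13.6% were higher and lower at p under 0.05 before adjustment. Among 7 genes of the AHR complex (receptor, partners, repressor and the chaperones HSP90AA1, HSP90AB1 and PTGES3), AHR was the 1 gene called by edgeR, as lower, DESeq2 called both AHR and AHRR lower (adjusted p = 0.0181 and 0.00763), and the median log2 change was -0.20, against -0.0035 over all genes tested. Of 12 other AHR-induced genes, 8 were tested and 0 were called by edgeR. At the same p before adjustment 0 were higher and 4 lower, and the median was -0.27. DESeq2 called 2 of these genes lower, SLC7A5 (log2 -0.74, adjusted p = 0.00134) and NFE2L2, which encodes NRF2 (log2 -0.45, adjusted p = 0.0378). SLC7A5, a subunit of the transporter that imports tryptophan and kynurenine, chosen here after its values were seen, had normalized counts of 19699 and 9979 in WT/HAQ, 11233 and 5851 in WT/-, and 12029 and 9768 in HAQ/- (edgeR adjusted p = 0.0696). CYP1A2, the liver-restricted neighbour of CYP1A1, had a count of 0 in all 6 libraries.

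Genes of kynurenine and AHR ligand metabolism rose where they were called. Of 9 such genes, 7 were tested, 3 rose and 0 fell in edgeR, beside 2.27% and 0.959% of all genes, with a median log2 change of 0.64. At 1.5-fold in WT/HAQ, 4 of these genes were raised and 1, TDO2 (counts of 34 and 17), was lowered, beside 12.8% and 12.3% of all genes. IDO1, the interferon-inducible enzyme that starts the conversion of tryptophan to kynurenine, had normalized counts of 682 and 3973 in the control and cGAMP libraries of WT/HAQ, 1234 and 4004 in WT/-, and 341 and 941 in HAQ/-. Its log2 folds were 2.54, 1.70 and 1.46, and the change over the lines was 1.91 (SE 0.220, adjusted p = 0.0220). KYNU, the kynureninase that consumes kynurenine, had normalized counts of 146 and 302 in WT/HAQ, 371 and 751 in WT/-, and 71.5 and 115 in HAQ/- (log2 0.94, SE 0.111, adjusted p = 0.0234). IL4I1, the amino acid oxidase that yields indole ligands of AHR, had normalized counts of 23.9 and 85.5 in WT/HAQ, 287 and 613 in WT/-, and 6.11 and 28.5 in HAQ/- (log2 1.45, SE 0.225, adjusted p = 0.0444). DESeq2 called the same 3 genes higher. In edgeR all 3 calls were lost without WT/- (adjusted p = 0.272 for IDO1, 0.334 for KYNU and 0.287 for IL4I1), and those for KYNU (0.0903) and IL4I1 (0.129) also without WT/HAQ. Without WT/-, 0 of the 15126 genes tested were called. All 3 were raised at least 1.5-fold in each line, including HAQ/-, where TIPARP was not.

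Set beside the shares of all genes above (2.27% higher and 0.959% lower in edgeR, 5.2% and 3.93% in DESeq2, 11.6% and 13.6% before adjustment), lists of neighbouring pathways and of cell markers had the following counts. The NRF2 list, whose transcription factor also drives NQO1, had 0 of 8 genes called by edgeR, 1 higher and 4 lower before adjustment (p under 0.05), and a median of -0.20. DESeq2 called GCLM higher (adjusted p = 0.0454) and OSGIN1 lower (adjusted p = 0.0430). In the HIF list, which shares ARNT with the AHR pathway, 9 of 10 genes were tested and the peptide hormone gene ADM fell (log2 -0.80, SE 0.121, adjusted p = 0.0416), with log2 folds of -0.64, -1.12 and -0.64 and a list median of 0.11. Before adjustment 3 genes of the HIF list were higher and 2 lower (p under 0.05). The ADM call was lost without WT/HAQ (adjusted p = 0.0942) and without WT/- (adjusted p = 0.272), where 0 of the 15126 genes were called. DESeq2 also called it lower, and BNIP3, EGLN3 and NDRG1 higher (adjusted p = 0.000163, 0.0188 and 0.0419). The mitophagy receptor gene BNIP3 had log2 folds of 1.60, 1.17 and 0.55 in WT/HAQ, WT/- and HAQ/- (edgeR adjusted p = 0.0581). EGLN3, an oxygen-sensing prolyl hydroxylase chosen after its values were seen, had counts of 15 and 169 in WT/HAQ, 6 and 65 in WT/-, and 12 and 7 in HAQ/- (edgeR adjusted p = 0.117), past 1.5-fold in WT/HAQ and WT/- and not in HAQ/-, as for TIPARP. The epithelial markers had 0 of 7 genes called by edgeR, and before adjustment 1 was higher and 3 were lower (p under 0.05). DESeq2 called PAX8 (log2 -1.06, adjusted p = 0.000554) and KRT7 (log2 -0.67, adjusted p = 0.00127) lower. MUC16 went the other way, past 1.5-fold in each line (log2 folds of 1.23, 1.52 and 0.74 in WT/HAQ, WT/- and HAQ/-). Its counts were low, its interval in HAQ/- was -1.25 to 2.74, and DESeq2 did not call it (adjusted p = 0.178). Of the 6 markers of other cells 2 were tested and 0 were called by edgeR, 1 was higher before adjustment (p under 0.05), and DESeq2 called COL3A1 higher (log2 4.89, adjusted p = 0.00502).

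**Figure D3:**
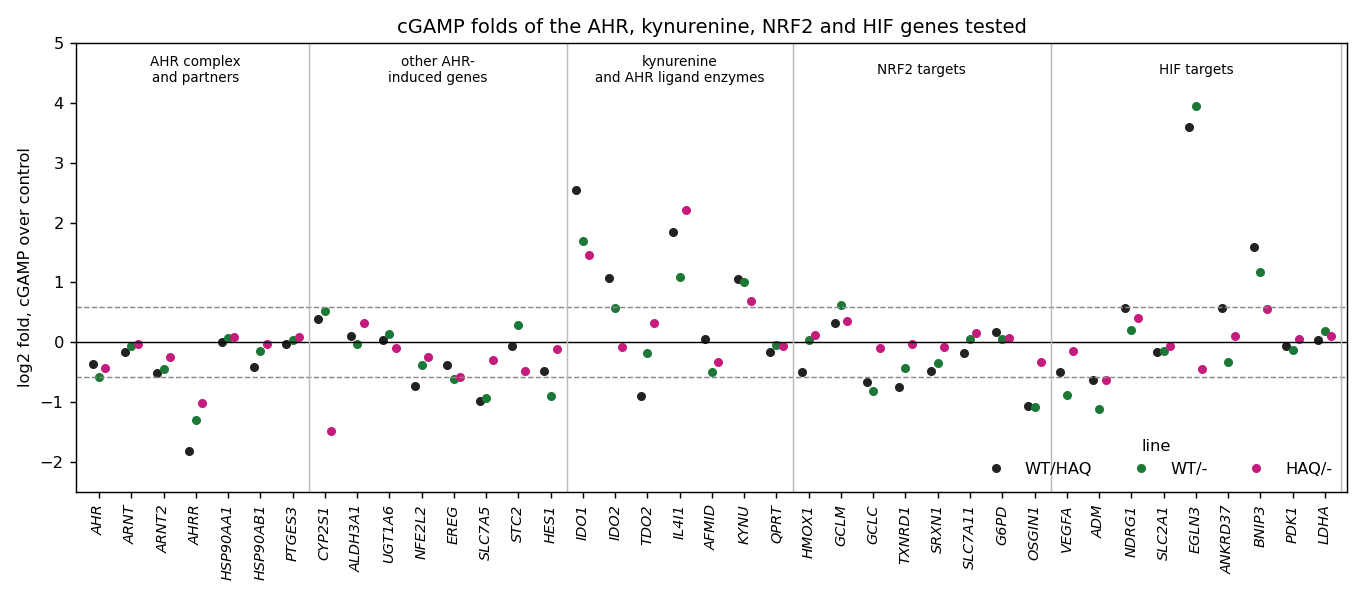
Log2 fold of cGAMP over control in WT/HAQ (black), WT/- (green) and HAQ/- (magenta) for the tested genes of 5 lists, with 1 library per condition and dashed lines at 1.5-fold. Points of IDO1, IL4I1 and KYNU lie above the upper line in each line of cells, whereas all 3 points of AHRR lie below the lower line.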

How the data were processed

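The authors deposited expected counts per gene (estimated counts without normalization) for 60498 genes in 6 libraries, prepared from TRIzol RNA with an Illumina TruSeq mRNA kit. The submitters' processing notes name STAR, RSEM and the build GRCh38 (hg38), without versions. Between 92.7% and 93.3% of values were whole. RSEM divides reads among overlapping or similar genes, so shared reads can move between them.

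Values were rounded. The 15126 genes averaging 10 or more counts over the 6 libraries were tested with edgeR 4.0.16 in R 4.3.3 (TMM factors from 0.940 to 1.05, quasi-likelihood F test, model of line and treatment, 2 residual degrees of freedom, Benjamini-Hochberg adjustment, threshold 0.05), after a test on simulated data. Labels do not describe separate cultures beyond 1 library per condition. In this model the residual is the difference of the cGAMP change between lines, so p-values measure that difference and not the spread between cultures. In the comparisons of lines, the 2 libraries of a line are its control and its cGAMP library. Folds within a line have no test: Wilson intervals at 95% cover counting error only, counts under 3 were set to 3, and raised or lowered means at least 1.5-fold.

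Members and lists (AHR complex, other AHR-induced genes, kynurenine and ligand enzymes, NRF2 targets, HIF targets, epithelial markers, markers of other cells) were chosen with earlier results of these data known, and 1 gene of the first list is not reported here. Named genes were the 7 members, up to 4 per list that passed the test or were past 1.5-fold in the same direction in 3 lines, and the 5 genes most like TIPARP. Genes outside this rule were named after their values were seen: SLC7A5, EGLN3, CYP1A2, TDO2, ABCG2, SLC7A11, markers, and genes called by DESeq2 only. Positions and exon lengths come from GENCODE 44, which held 56434 of the identifiers. Python 3.11.15 with pandas 2.3.3 was used. Alternatives covered normalization, DESeq2 1.42.0, filters, floors, the fold threshold, the block and left-out libraries.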

Additional observations from a re-analysis of the deposited data

Results flagged for a closer look

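Among the listed genes, 2 had log2 folds of opposite sign in WT/HAQ and HAQ/- with both counting intervals excluding 0. There was 1 library per condition, and the difference between the lines was not tested. ABCG2, a xenobiotic efflux pump, had a log2 fold of -1.90 in WT/HAQ (counts of 12 and 2) and of 2.33 in HAQ/- (2 and 12), and was below the count minimum for the test across lines. SLC7A11, the cystine transporter of the NRF2 list, had a log2 fold of -0.18 in WT/HAQ and of 0.15 in HAQ/-.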

How the results depend on the processing

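Of 125 recomputed member folds, 122 stayed inside their counting interval, 0 reversed and 3 moved: with total counts only, TIPARP in WT/- became 1.01 and CYP1B1 in WT/- 1.57, and with a floor of 10 counts CYP1A1 in WT/HAQ became -0.66. At 2-fold, 0 members were raised in HAQ/-, and at 1.2-fold 2 were lowered there. Shares of all genes at these thresholds were not counted. For cGAMP over the lines, 0 members were called lower with DESeq2 size factors, with a mean count of at least 50 and without the replicate block. DESeq2 and a filter of 1 count in any library called 2 higher and 2 lower, and a mean count of at least 1 called 1 higher and 2 lower. The numbers of all genes called with DESeq2 and with these filters are given below. TIPARP passed with DESeq2 (log2 0.94, adjusted p = 0.00275) and with 1 count in any library (0.94, adjusted p = 0.0169). With a line left out its log2 change ranged from 0.66 to 1.28, members called higher from 0 to 2 and lower from 0 to 3.

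Between lines, without the replicate block (treatment left out) 0 members were higher in WT/- than WT/HAQ and 0 lower in HAQ/- than WT/-. DESeq2 called 2 lower in HAQ/- than WT/HAQ, beside 380 of 14246 genes, and a mean count of at least 1 called 1, beside 258 of 21012. A mean count of at least 50 called 1 (NQO1) higher in HAQ/- than WT/-, beside 1226 of 12087. The members called changed with the library left out. With 1 library left out, the log2 difference of TIPARP ranged from 0.33 to 1.157 for WT/- against WT/HAQ. It ranged from -1.903 to -0.858 for HAQ/- against WT/HAQ and from -2.63 to -1.585 for HAQ/- against WT/-. The cause of these shifts was not tested.

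Over all genes, cGAMP gave 344 higher and 145 lower calls of 15126, and 57 and 4 without the replicate block. DESeq2 gave 772 and 583 of 14832. A mean count of at least 1 gave 581 and 424 of 21012, and 1 count in any library 943 and 864 of 27666. In edgeR the calls were 136 and 50 without WT/HAQ, 1285 and 1309 without HAQ/- and 0 and 0 without WT/-. Without WT/-, 949 and 939 had an unadjusted p under 0.05, and DESeq2 was not run on that subset. WT/- against WT/HAQ gave 755 and 577, without the block 115 and 132, and with a library left out 0 to 1544 and 0 to 1105. HAQ/- against WT/HAQ gave 57 and 128, with DESeq2 182 and 380, with a mean count of at least 1 111 and 258, without the block 6 and 8, and with a library left out 0 to 410 and 0 to 907. HAQ/- against WT/- gave 1201 and 1679, without the block 341 and 369, and 0 and 0 without either WT/- library. Depth limits CYP1A1, which had at most 47 counts in a library.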
